A study of Mus musculus with 24 samples.

Results

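Retinoic acid is made from retinol in cells and acts on gene expression through nuclear receptors. Cells take up retinol, oxidise it to retinal and then to retinoic acid, carry the acid on small binding proteins and destroy it by hydroxylation. Several genes of uptake and breakdown are textbook targets of retinoic acid, so that exposed cells adjust their own supply. Retinoic acid given to embryoid bodies, the aggregates that mouse embryonic stem cells form in suspension, is a standard inducer of differentiation.

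The 9 genes described here were chosen by name for their roles in this pathway, out of 19938 genes measured. Earlier results of these data were known at that choice, so counts of the 9 beside shares of all genes are descriptions. Cyp26a1, Cyp26b1 and Cyp26c1 encode the cytochrome P450 enzymes that hydroxylate retinoic acid. Dhrs3 encodes a reductase that returns retinal to retinol, and Stra6 the cell surface receptor for retinol bound to its plasma carrier. Crabp1 and Crabp2 encode the cellular retinoic acid binding proteins, of which CRABP2 is known to hand the acid to its nuclear receptor. Rdh10 encodes a retinol dehydrogenase and Aldh1a2 a retinal dehydrogenase, the enzymes of synthesis. In GRCm38.p6 Cyp26c1 (chr19:37685112-37693320) and Cyp26a1 (chr19:37697738-37701536) are neighbours, Stra6, Crabp1 and Aldh1a2 lie on chromosome 9, and Rdh10, Crabp2, Dhrs3 and Cyp26b1 on chromosomes 1, 3, 4 and 6. Each of the 9 had 1 probe set, annotated to its symbol alone, and all 9 stayed in when the dimmest 25% of genes were left out. That cut was a mean log2 value of 6.63 over the arrays. Aldh1a2 averaged 6.94, and its siPRMT1 ES arrays of 6.60 and 6.57 lay below the cut. Cyp26c1 averaged 7.48. Differences of such dim genes are less certain.

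The cells were D3 mouse embryonic stem cells, an established line. They carried either a knockdown of the arginine methyltransferase PRMT1 (siPRMT1) or a scrambled sequence (siSCR). Each line was measured on Affymetrix arrays in 4 states: undifferentiated (ES), as embryoid bodies aged 4 days without the cytokine LIF (day 4), and as embryoid bodies given the solvent DMSO or all-trans retinoic acid (ATRA, 5 mikromol final concentration per the labels) for 12 h. The 24 arrays make 8 groups of 3, which the labels call biological replicates. Separate cultures are not stated, so p-values measure the spread between these arrays, which may be technical. Clone numbers of the lines, and whether the knockdown was transient, are not given in the labels, nor is it clear whether the 12 h lay within the 4 days.

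Levels below are log2 expression values as deposited, and the level of a gene is compared between arrays, not with the level of another gene. Marker lists are averaged, or summed after taking values out of log2, and so combine genes on unlike scales. In such a summed linear level the brightest genes weigh most, and it does not measure an amount of cells. Differences are log2 fold changes ± standard error from 1 limma fit to all 24 arrays. That error rests on 1 variance per gene over the 8 groups, so it is the same for any pair of groups. It understates the uncertainty of groups with a wider spread and overstates that of groups with a narrower spread. A gene counts as called when its Benjamini-Hochberg adjusted p over 19938 genes is under 0.05. In bulk RNA, fewer cells of a type and less RNA per cell cannot be told apart.

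Prmt1 itself lay between 9.60 and 10.45 in the 12 siPRMT1 arrays, against 10.85 to 11.59 in the 12 siSCR arrays. It was lower in siPRMT1 in every state, by 1.37 ± 0.061 in ES cells, 0.63 ± 0.061 at day 4, 1.11 ± 0.061 with DMSO and 1.45 ± 0.061 with ATRA. The 6 siSCR arrays with DMSO or ATRA were separated from the remaining 18 by principal component 1, with scores of 50.1 to 61.2, against -26.8 to -9.44. Their values were also less spread over genes, with an SD of 1.98 to 2.07, against 2.15 to 2.27. The knockdown comparisons with DMSO and ATRA and the DMSO comparison in siSCR set these 6 arrays against others and have no value without them. No batch is labelled, and there an array effect and the groups cannot be told apart. Pou5f1, the gene of the pluripotency factor OCT4, stayed at 13.1 to 13.3 in the 8 group means, and the list of 10 ES cell markers averaged 11.1 to 11.7 in all arrays. Some other members of that list ranged more widely. Group means ran from 9.89 to 11.88 for Klf4, from 10.36 to 11.96 for Tcl1 and from 10.85 to 12.17 for Tbx3. The list of 12 endoderm markers averaged 9.62 to 10.9 in embryoid body arrays and 8.59 to 8.83 in ES arrays.

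The promoter of Cyp26a1 is shown because it carries the element through which retinoic acid receptors are known to act, a direct repeat of a hexamer. The searched half-sites were AGGTCA as the classical form, then AGTTCA, known from the Cyp26a1 element, with GGGTCA as a further form and lastly GGTTCA. Any pair in the same direction, spaced by 1, 2 or 5 bases, was sought on both strands of the 250 bases before each start site in RefSeq (GRCm38.p6). Windows were found for 7 of the 9 genes, 12 windows in all, and 1 of the 12 held a repeat. It lies in the Cyp26a1 window, chr19:37697558-37697807 on the plus strand, 32 to 16 bases before the start site, with half-sites spaced by 5 on the opposite strand. Read there it is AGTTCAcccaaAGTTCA. The gene entry of Cyp26a1 begins at 37697738, so the element lies within the gene entry and before this window's start site. Among all 32851 windows, 0.0883% held a pair spaced by 5 and 0.426% a pair with any of the 3 spacings. The form AGTTCA was searched because the Cyp26a1 element is known, so these shares do not measure how rare its match is. The window of Cyp26b1, chr6:84593811-84594060 on the minus strand, is given beside it as a relative without a match, and its gene entry likewise reaches into the window. Both read along the gene, with half-sites in capitals:
Cyp26a1: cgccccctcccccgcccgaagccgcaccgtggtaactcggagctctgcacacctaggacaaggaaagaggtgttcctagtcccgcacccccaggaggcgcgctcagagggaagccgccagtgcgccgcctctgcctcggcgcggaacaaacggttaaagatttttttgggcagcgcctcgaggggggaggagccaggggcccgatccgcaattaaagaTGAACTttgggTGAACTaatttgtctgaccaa
Cyp26b1: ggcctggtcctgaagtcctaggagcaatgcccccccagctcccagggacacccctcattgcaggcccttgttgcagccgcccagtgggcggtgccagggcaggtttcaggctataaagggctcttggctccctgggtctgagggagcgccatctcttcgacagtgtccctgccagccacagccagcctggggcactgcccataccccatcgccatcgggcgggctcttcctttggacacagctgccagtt

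A match is a description of letters, and binding was not measured. No match says only that these letters are not in that window.

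**Figure D1:**
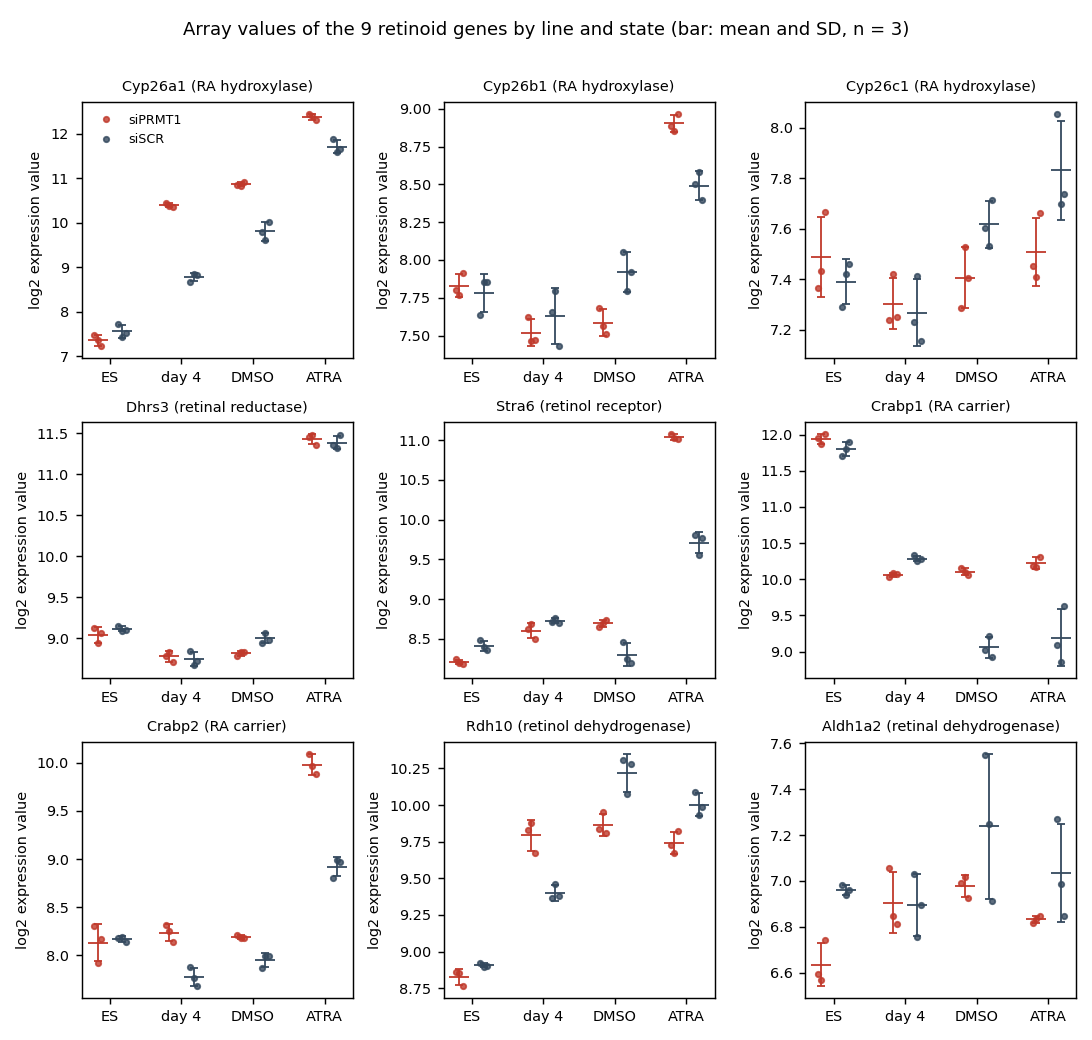
Log2 expression value (y axis, a separate scale for each gene) of the 9 genes in ES cells, day 4 embryoid bodies, and embryoid bodies with DMSO or ATRA, with siPRMT1 left of siSCR in each state. Points are arrays and bars are mean and SD (n = 3). Cyp26a1, Cyp26b1, Dhrs3, Stra6 and Crabp2 are highest with ATRA in both lines, and Crabp1 is highest in ES cells.

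The ATRA response was measured against DMSO within each line. In siPRMT1 embryoid bodies 5 of the 9 genes were higher and 0 lower, where 12% of all genes were called (6.05% higher and 5.94% lower). In siSCR embryoid bodies 5 of the 9 genes were higher and 1 lower, where 23.4% of all genes were called (11.2% higher and 12.2% lower). The 5 that rose were in both lines the hydroxylase genes Cyp26a1 and Cyp26b1, the reductase gene Dhrs3, the retinol receptor gene Stra6 and the carrier gene Crabp2. The median difference of the 9 was 1.32 in siPRMT1 and 0.57 in siSCR, against 0.025 and 0.028 over all genes. In the same arrays, of 7 measured epiblast and streak markers 0 higher and 4 lower were called in siPRMT1 (median -0.53) and 0 higher and 2 lower in siSCR (median -0.28). Of 12 endoderm markers the counts were 1 higher and 3 lower in siPRMT1 and 2 higher and 5 lower in siSCR, and of 10 ES cell markers 1 higher and 4 lower in siPRMT1 and 1 higher and 4 lower in siSCR. Of 11 measured fibroblast and feeder markers they were 0 higher and 2 lower in siPRMT1 and 0 higher and 1 lower in siSCR, and of 6 neural progenitor markers 1 higher and 0 lower in siPRMT1 and 1 higher and 1 lower in siSCR. The part of these cells in the responses was not tested.

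Dhrs3, the retinal reductase gene, had the largest ATRA response of the 9. Its values in siPRMT1 were 11.45, 11.48 and 11.36 with ATRA, against 8.79, 8.83 and 8.84 with DMSO. In siSCR they were 11.35, 11.33 and 11.48 with ATRA, against 8.95, 9.06 and 8.98 with DMSO. All ATRA arrays lay above all DMSO arrays. The rise was 2.61 ± 0.062 in siPRMT1 (6.11-fold, limma adjusted p = 5.96e-17) and 2.39 ± 0.062 in siSCR (5.24-fold, adjusted p = 5.53e-16), rank 7 and rank 3 from the highest among all genes. The response in siPRMT1 minus that in siSCR was 0.22 ± 0.088 and not called (adjusted p = 0.182, 95% interval 0.041 to 0.41). With arrays scaled to one SD it was -0.070.

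Cyp26a1, the leading hydroxylase gene of the early embryo, also rose in both lines. Its siPRMT1 values were 12.44, 12.40 and 12.31 with ATRA, against 10.86, 10.84 and 10.93 with DMSO. In siSCR it had 11.88, 11.59 and 11.66 with ATRA, against 9.80, 9.60 and 10.01 with DMSO. No ATRA array overlapped a DMSO array of its line, and the siPRMT1 levels were the higher ones in both treatments. The rise was 1.51 ± 0.098 in siPRMT1 (2.84-fold, limma adjusted p = 4.03e-10) and 1.90 ± 0.098 in siSCR (3.74-fold, adjusted p = 3.08e-11). The difference between the lines, -0.40 ± 0.14, was not called (adjusted p = 0.129, 95% interval -0.68 to -0.11). It was called with arrays scaled to one SD (-0.62, adjusted p = 0.022) and without siSCR DMSO replicate 3 (-0.50, adjusted p = 0.0409).

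Stra6, the retinol uptake gene, responded more in siPRMT1. It had 11.08, 11.02 and 11.01 with ATRA in siPRMT1, against 8.65, 8.70 and 8.73 with DMSO. It had 9.81, 9.56 and 9.77 with ATRA in siSCR, against 8.46, 8.24 and 8.19 with DMSO. The siPRMT1 ATRA arrays were more than 1 log2 unit above every other array. The rise was 2.35 ± 0.072 in siPRMT1 (5.08-fold, limma adjusted p = 4.49e-15) and 1.41 ± 0.072 in siSCR (2.66-fold, adjusted p = 3.08e-11), and the difference between them was 0.93 ± 0.10 (adjusted p = 1.88e-05).

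Crabp2, the carrier gene tied to receptor delivery, followed the same order. Its siPRMT1 values were 10.10, 9.97 and 9.89 with ATRA, against 8.21, 8.18 and 8.18 with DMSO. Its siSCR values were 8.80, 8.99 and 8.97 with ATRA, against 7.87, 7.99 and 8.00 with DMSO. ATRA and DMSO arrays did not overlap. The rise was 1.79 ± 0.083 in siPRMT1 (3.47-fold, limma adjusted p = 2e-12) and 0.97 ± 0.083 in siSCR (1.96-fold, adjusted p = 4.72e-08), with a difference of 0.82 ± 0.12 (adjusted p = 0.000372).

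Cyp26b1, the hydroxylase gene known from limb bud, hindbrain and gonad, had 8.89, 8.86 and 8.97 with ATRA in siPRMT1, against 7.68, 7.56 and 7.51 with DMSO. In siSCR it had 8.50, 8.58 and 8.39 with ATRA, against 8.06, 7.79 and 7.92 with DMSO. Both lines rose without overlap, and siPRMT1 spanned the wider range, lower with DMSO and higher with ATRA than siSCR. The rise was 1.32 ± 0.090 in siPRMT1 (2.49-fold, limma adjusted p = 9.21e-10) and 0.57 ± 0.090 in siSCR (1.49-fold, adjusted p = 0.000117), with a difference of 0.75 ± 0.13 (adjusted p = 0.00203).

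For the difference in ATRA response, 3 of the 9 genes were higher and 0 lower, where 3.24% of all genes were called (1.92% higher and 1.32% lower). The 3 are Stra6, Crabp2 and Cyp26b1, and with arrays scaled to one SD their differences were 0.76, 0.71 and 0.68, all still called. This comparison sets a response within the 6 arrays that stood apart against one outside them. In the same arrays, 3 of 7 measured epiblast and streak markers and 1 of 12 endoderm markers were lower by this difference, and 0 and 1 were higher. Of 11 measured fibroblast and feeder markers 0 higher and 1 lower were called, and of 6 neural progenitor markers 1 higher and 0 lower. Of 10 ES cell markers 0 higher and 0 lower were called. Their part in the result was not tested.

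Of the other 4 genes, 1 was called in 1 line. Crabp1, the second carrier gene, differed by 0.12 ± 0.12 in siPRMT1 and 0.13 ± 0.12 in siSCR, neither called. Its SD was 0.081 with ATRA and 0.050 with DMSO in siPRMT1, against 0.39 and 0.15 in siSCR. Cyp26c1 differed by 0.10 ± 0.10 and 0.21 ± 0.10, neither called, and stayed between 7.15 and 8.05 in all 24 arrays. Of the synthesis genes, Rdh10 differed by -0.12 ± 0.069 in siPRMT1 (adjusted p = 0.315, not called) and fell by 0.22 ± 0.069 in siSCR (limma adjusted p = 0.0266), where its arrays overlapped. The siSCR call was lost with only the compared groups in the fit (adjusted p = 0.258), after quantile normalization (0.109) and with array weights (0.133), which called Rdh10 in siPRMT1 instead (0.00708). It was also lost without siSCR DMSO replicate 1 or 3 or siSCR ATRA replicate 2 or 3 (adjusted p 0.06 to 0.107). Aldh1a2, which ran between 6.57 and 7.55, differed by -0.15 ± 0.12 in siPRMT1 and -0.20 ± 0.12 in siSCR, neither called. It was called in siSCR without siSCR DMSO replicate 3 (-0.36, adjusted p = 0.0234) and in siPRMT1 with array weights (-0.16, 0.0297).

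**Figure D2:**
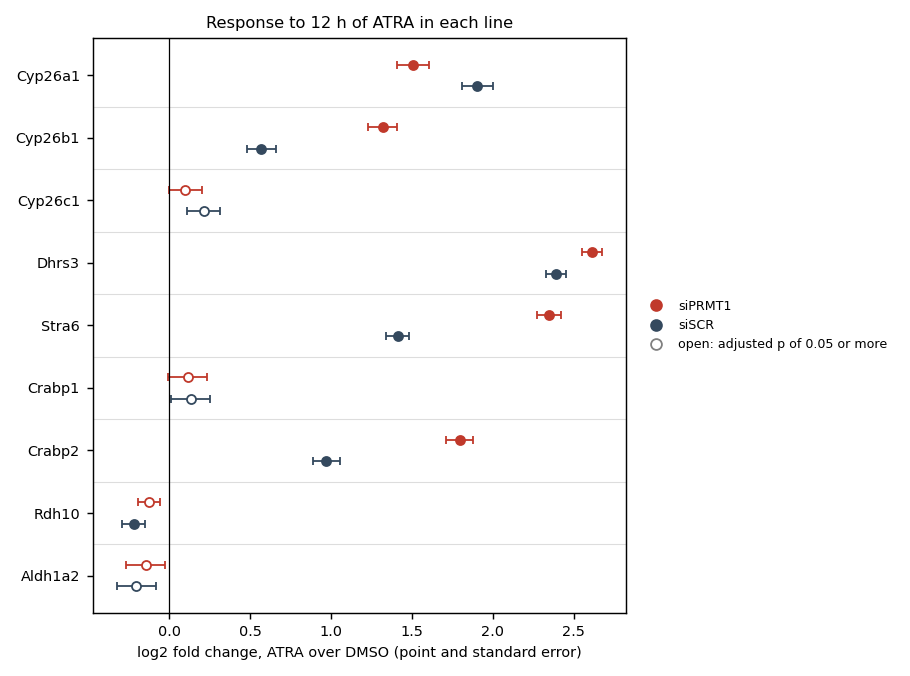
Log2 fold change of ATRA over DMSO (x axis, point and standard error, 3 arrays a group) for the 9 genes, with siPRMT1 above siSCR. Filled points were called at an adjusted p under 0.05. Stra6, Crabp2 and Cyp26b1 lie further right in siPRMT1 (2.35, 1.79 and 1.32) than in siSCR (1.41, 0.97 and 0.57).

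Embryoid body formation was measured as day 4 against ES cells of the same line. In siPRMT1 3 of the 9 genes were higher and 3 lower, where 41.4% of all genes were called (23% higher and 18.4% lower). In siSCR 3 of the 9 genes were higher and 3 lower, where 28.2% of all genes were called (14.5% higher and 13.7% lower). For the difference between the lines, 3 of the 9 genes were higher and 0 lower, where 23.8% of all genes were called (15% higher and 8.83% lower). Cyp26a1, Rdh10 and Stra6 rose in both lines, and Crabp1 and Dhrs3 fell in both.

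Cyp26a1 rose most of the 9. It had 10.44, 10.39 and 10.35 at day 4 in siPRMT1, against 7.48, 7.36 and 7.22 in ES cells. It had 8.67, 8.84 and 8.82 at day 4 in siSCR, against 7.73, 7.44 and 7.52 in ES cells. The lines overlapped in ES cells and were apart at day 4. The rise was 3.04 ± 0.098 in siPRMT1 (8.21-fold, limma adjusted p = 2.27e-15, rank 15 among all genes) and 1.22 ± 0.098 in siSCR (2.33-fold, adjusted p = 3.31e-09, rank 120). The siPRMT1 rise was larger by 1.82 ± 0.14 (adjusted p = 1.16e-08).

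Rdh10, the retinol dehydrogenase gene, had 9.83, 9.87 and 9.67 at day 4 in siPRMT1, against 8.86, 8.86 and 8.76 in ES cells. In siSCR it had 9.36, 9.46 and 9.38 at day 4, against 8.92, 8.89 and 8.90 in ES cells. Day 4 was above ES in both lines without overlap, by 0.97 ± 0.069 in siPRMT1 (limma adjusted p = 4.77e-10) and 0.50 ± 0.069 in siSCR (adjusted p = 8.47e-06), with a difference of 0.47 ± 0.098 (adjusted p = 0.00123).

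Crabp1 fell most of the 9. It had 10.04, 10.08 and 10.07 at day 4 in siPRMT1, against 11.95, 11.87 and 12.01 in ES cells, and 10.33, 10.26 and 10.27 at day 4 in siSCR, against 11.71, 11.80 and 11.90 in ES cells. It fell by 1.88 ± 0.12 in siPRMT1 (limma adjusted p = 1.09e-10) and by 1.52 ± 0.12 in siSCR (adjusted p = 3.56e-09), with every day 4 array below every ES array. The difference between the lines of -0.36 ± 0.17 was not called (adjusted p = 0.144), but it was called with only the 4 compared groups in the fit (adjusted p = 0.00656), with array weights (-0.27, 0.0482) and without the 6 arrays that stood apart (0.00242).

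The other 6 genes had smaller differences. Stra6 rose by 0.40 ± 0.072 in siPRMT1 and 0.31 ± 0.072 in siSCR. Dhrs3 fell by 0.26 ± 0.062 in siPRMT1 and 0.37 ± 0.062 in siSCR. Centring each array on its median moved the median of all genes by 0.12 in siPRMT1, and there the Dhrs3 call was lost (-0.15, adjusted p = 0.15). Crabp2 was at 0.10 ± 0.083 in siPRMT1, not called, and fell by 0.40 ± 0.083 in siSCR (limma adjusted p = 0.000813), a difference of 0.50 ± 0.12 (adjusted p = 0.00319).

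Cyp26b1 fell by 0.31 ± 0.090 in siPRMT1 (adjusted p = 0.00835), a call lost after quantile normalization (-0.20, 0.0868) and after median centring (-0.20, 0.0647). In siSCR it was at -0.15 ± 0.090 and not called, except with array weights (-0.26, adjusted p = 0.00408). Cyp26c1 was at -0.18 ± 0.10 in siPRMT1 and -0.12 ± 0.10 in siSCR, neither called, although array weights called it in siSCR (-0.21, adjusted p = 0.0241). Aldh1a2, the retinal dehydrogenase gene, was at 0.27 ± 0.12 in siPRMT1 (adjusted p = 0.079, not called) and -0.067 ± 0.12 in siSCR. In siPRMT1 it was called under 6 alternatives, among them the fit without the 6 arrays that stood apart (adjusted p = 0.00555), which also called the difference between the lines (adjusted p = 0.0189). With all arrays that difference was 0.34 ± 0.17 and not called (adjusted p = 0.171). The difference was also called with array weights (0.0127) and with only the 4 compared groups (0.0498).

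Marker lists moved in the same arrays. Of 12 endoderm markers, 12 were higher at day 4 in siPRMT1 and 11 in siSCR, and for 9 the rise was larger in siPRMT1. Of 11 measured fibroblast and feeder markers, 10 were lower at day 4 in siPRMT1 and 9 in siSCR, and 5 higher and 1 lower were called for the difference between the lines. Of 7 measured epiblast and streak markers, 6 higher and 0 lower were called in siPRMT1 and 4 higher and 0 lower in siSCR, and 5 higher and 0 lower for the difference between the lines. Of 10 ES cell markers, 0 higher and 6 lower were called in siPRMT1 and 2 higher and 2 lower in siSCR, and 0 higher and 5 lower for the difference. The part of all these markers in the changes of the 9 genes was not tested.

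**Figure D3:**
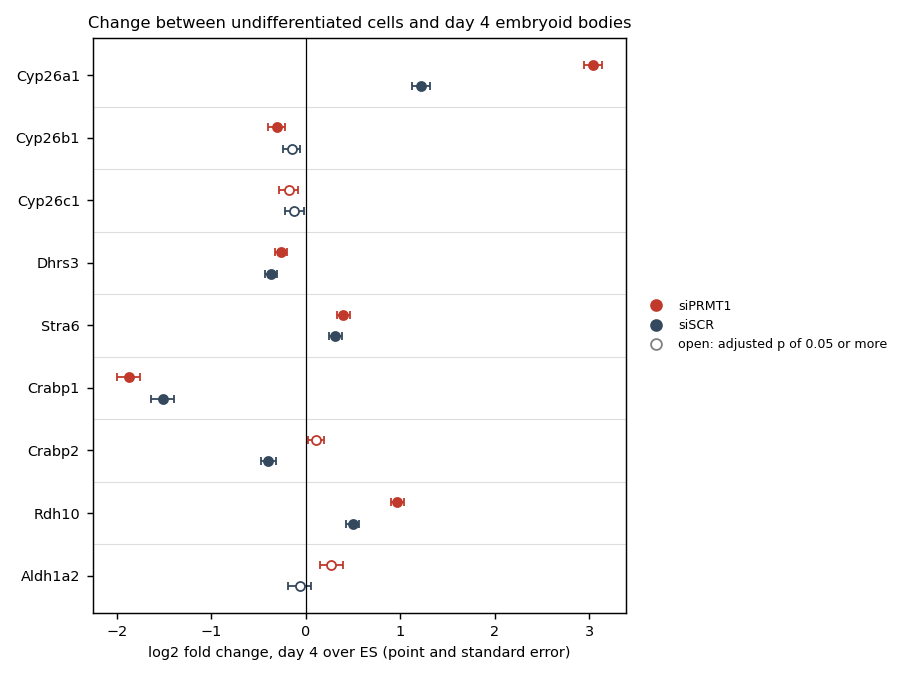
Log2 fold change of day 4 embryoid bodies over ES cells (x axis, point and standard error, 3 arrays a group) for the 9 genes, with siPRMT1 above siSCR. Filled points were called at an adjusted p under 0.05. Cyp26a1 lies at 3.04 in siPRMT1 and 1.22 in siSCR, and Crabp1 at -1.88 and -1.52.

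The knockdown was compared with the scrambled control in each state, on the same arrays as above. In ES cells 0 of the 9 genes were higher and 1 lower, where 18.8% of all genes were called (7.63% higher and 11.2% lower). The 1 gene was Stra6, with 8.24, 8.19 and 8.19 in siPRMT1, against 8.48, 8.39 and 8.36 in siSCR. The arrays did not overlap, but the difference was small, -0.21 ± 0.072 (limma adjusted p = 0.0486). The call was lost without any one of the 6 arrays compared (adjusted p 0.0634 to 0.179), after median centring (0.0785), with arrays scaled to one SD (0.0697) and with a variance trend (0.0519).

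Aldh1a2 had 6.60, 6.57 and 6.74 in siPRMT1 ES cells, against 6.98, 6.94 and 6.96 in siSCR, also without overlap. Its difference of -0.33 ± 0.12 was not called (adjusted p = 0.0656). It was called with only the compared groups in the fit (adjusted p = 0.0152), without the dimmest genes (0.0457), with array weights (0.000935) and without the 6 arrays that stood apart (0.00296). The 7 other genes lay between -0.21 (Cyp26a1) and 0.14 (Crabp1). In these ES arrays 8 of 11 fibroblast and feeder markers were lower in siPRMT1 and 0 higher, with a summed linear level of 5712 to 5963, against 8629 to 9235 in siSCR. Of 10 ES cell markers 4 higher and 1 lower were called, and of 12 endoderm markers 4 higher and 0 lower. The part of these cells was not tested.

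At day 4 3 of the 9 genes were higher and 0 lower, where 18.4% of all genes were called (11.4% higher and 7.01% lower). Cyp26a1 was higher in siPRMT1 by 1.61 ± 0.098 (3.05-fold, limma adjusted p = 6.17e-10), rank 9 among all genes. Crabp2 had 8.31, 8.25 and 8.14 in siPRMT1, against 7.88, 7.77 and 7.68 in siSCR, and was higher by 0.46 ± 0.083 (adjusted p = 0.000425). Rdh10 was higher by 0.39 ± 0.069 (adjusted p = 0.000348). For all 3 genes the siPRMT1 arrays lay above the siSCR arrays. Crabp1 lay below without overlap, but its difference of -0.22 ± 0.12 was not called (adjusted p = 0.237). It was called with only the compared groups in the fit (adjusted p = 0.0213), with array weights (0.0306) and without the 6 arrays that stood apart (0.00821). The other 5 genes lay between -0.12 (Stra6) and 0.037 (Cyp26c1). At day 4 11 of 12 endoderm markers were higher in siPRMT1 and 0 lower, with a summed linear level of 32569 to 33914, against 19487 to 21854 in siSCR. Of 7 measured epiblast and streak markers 5 were higher and 0 lower, of 10 ES cell markers 0 higher and 4 lower, and of 11 fibroblast and feeder markers 0 higher and 5 lower. The part of these cells was not tested.

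With DMSO 4 of the 9 genes were higher and 3 lower, where 65.9% of all genes were called (31.3% higher and 34.6% lower). With ATRA 5 of the 9 genes were higher and 2 lower, where 70.1% of all genes were called (32.2% higher and 38% lower). In each, 7 of the 9 were called, a share near that of all genes. The 12 endoderm markers had a summed linear level of 36769 to 37922 in siPRMT1 with DMSO, against 17144 to 19478 in siSCR, and of 33673 to 35060 in siPRMT1 with ATRA, against 14841 to 16339 in siSCR. With DMSO 11 higher and 0 lower of the 12 were called and with ATRA 10 higher and 0 lower. The 7 epiblast and streak markers had a summed linear level of 9728 to 10288 in siPRMT1 with DMSO, against 4381 to 4649 in siSCR, and of 4190 to 4474 in siPRMT1 with ATRA, against 2910 to 3266 in siSCR. Of them 6 higher and 1 lower were called with DMSO and 4 higher and 1 lower with ATRA. Of 10 ES cell markers the counts were 3 higher and 5 lower with DMSO and 3 higher and 5 lower with ATRA, and of 11 fibroblast and feeder markers 1 higher and 5 lower with DMSO and 0 higher and 5 lower with ATRA. The part of these cells was not tested. Median centring moved the median of all genes by 0.11 with DMSO and 0.13 with ATRA. Crabp1 with DMSO had 10.16, 10.11 and 10.06 in siPRMT1, against 9.03, 9.22 and 8.93 in siSCR. With ATRA it had 10.18, 10.17 and 10.31 in siPRMT1, against 9.09, 8.86 and 9.63 in siSCR. It was higher in siPRMT1 without overlap, by 1.05 ± 0.12 with DMSO (limma adjusted p = 2.33e-07) and 1.03 ± 0.12 with ATRA (adjusted p = 2.84e-07).

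Stra6 was higher by 1.33 ± 0.072 with ATRA (2.51-fold, limma adjusted p = 1.76e-12) and by 0.40 ± 0.072 with DMSO (adjusted p = 7.33e-05). Crabp2 was higher by 1.06 ± 0.083 with ATRA (2.09-fold, adjusted p = 4.82e-10) and by 0.24 ± 0.083 with DMSO (adjusted p = 0.0161), the last lost without siSCR DMSO replicate 1 (0.20, 0.0703). Cyp26a1 was higher by 1.07 ± 0.098 with DMSO (adjusted p = 6.01e-09) and 0.67 ± 0.098 with ATRA (adjusted p = 4.44e-06). With arrays scaled to one SD its difference with ATRA was 0.24 and not called (adjusted p = 0.0516). Cyp26b1 was higher with ATRA by 0.41 ± 0.090 (adjusted p = 0.000459) and lower with DMSO, at -0.34 ± 0.090 (adjusted p = 0.00278).

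Rdh10 was lower in siPRMT1, at -0.36 ± 0.069 with DMSO (limma adjusted p = 0.000145) and -0.26 ± 0.069 with ATRA (adjusted p = 0.00237). The ATRA call was lost after median centring (-0.13, 0.114). Dhrs3 was lower with DMSO, at -0.18 ± 0.062 (adjusted p = 0.015), a call lost after median centring (-0.074, 0.439), without siSCR DMSO replicate 2 (0.0657) and without siPRMT1 DMSO replicate 1 (0.0528). With ATRA Dhrs3 was at 0.043 ± 0.062 and not called, while quantile normalization (-0.16, adjusted p = 0.0243) and scaling to one SD (-0.34, 5.31e-05) turned its sign and called it.

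Cyp26c1 was lower with ATRA, at -0.32 ± 0.10 (limma adjusted p = 0.00925), a call lost without siSCR ATRA replicate 1 (-0.21, 0.0757), with quantile-normalized values (0.0761) and with centred values (0.0911). With DMSO it was at -0.21 ± 0.10 and not called (adjusted p = 0.0787), but was called with array weights (0.0246) and without siPRMT1 DMSO replicate 2 (0.0452). Aldh1a2 was not called with DMSO (-0.26 ± 0.12, adjusted p = 0.0632) or ATRA (-0.20 ± 0.12, adjusted p = 0.136). The DMSO difference was called with array weights (0.0388) and without siSCR DMSO replicate 3 (-0.42, 0.00267), and the ATRA difference without siSCR ATRA replicate 3 (-0.30, 0.0491). Quantile normalization turned the ATRA difference to 0.030.

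**Figure D4:**
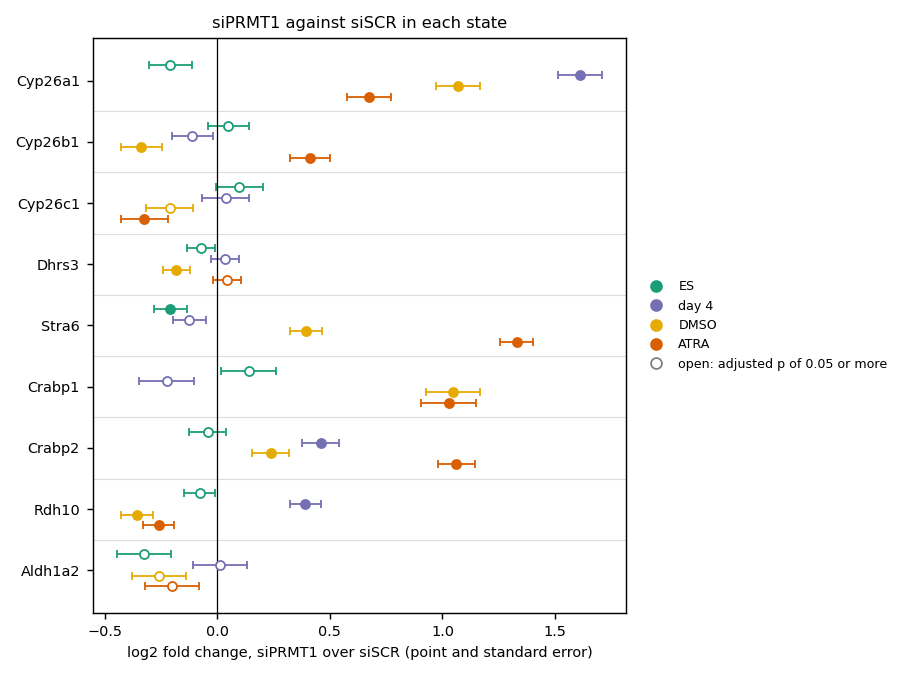
Log2 fold change of siPRMT1 over siSCR (x axis, point and standard error, 3 arrays a group) for the 9 genes in ES cells, at day 4, with DMSO and with ATRA. Filled points were called at an adjusted p under 0.05. Cyp26a1 lies at 1.61 at day 4, 1.07 with DMSO and 0.67 with ATRA, and Stra6 and Crabp2 lie furthest right with ATRA (1.33 and 1.06).

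DMSO was compared with day 4. In siPRMT1 1 of the 9 genes were higher and 0 lower, where 0.461% of all genes were called (0.306% higher and 0.155% lower). The 1 gene was Cyp26a1, higher by 0.48 ± 0.098 (limma adjusted p = 0.0282), with its DMSO arrays above its day 4 arrays. The call was lost without any one of the 6 arrays (adjusted p 0.0879 to 0.145), after median centring (0.0702) and with arrays scaled to one SD (0.0556). In the same siPRMT1 arrays 4 higher and 0 lower of 12 endoderm markers and 0 higher and 1 lower of 10 ES cell markers were called. In siSCR 6 of the 9 genes were higher and 2 lower, where 61.1% of all genes were called (30.8% higher and 30.3% lower), and the compared groups lie on different sides of the array separation. There Cyp26a1 (1.03 ± 0.098), Rdh10 (0.82 ± 0.069), Cyp26c1 (0.35 ± 0.10), Aldh1a2 (0.34 ± 0.12), Cyp26b1 (0.29 ± 0.090) and Dhrs3 (0.25 ± 0.062) were higher with DMSO, and Crabp1 (-1.23 ± 0.12) and Stra6 (-0.43 ± 0.072) lower. In the siSCR arrays 2 higher and 5 lower of 10 ES cell markers, 3 higher and 4 lower of 12 endoderm markers, 3 higher and 5 lower of 11 fibroblast and feeder markers and 2 higher and 1 lower of 7 epiblast and streak markers were called. The part of these cells in either line was not tested. The Aldh1a2 call was lost with only the compared groups in the fit (0.089), after quantile normalization (0.128), with arrays scaled to one SD (0.0618) and without siSCR day 4 replicate 2 or siSCR DMSO replicate 1 (adjusted p up to 0.158). The Cyp26b1 call was lost with only the compared groups in the fit (0.0533) and without siSCR day 4 replicate 3 (0.0746) or siSCR DMSO replicate 1 (0.0521). Crabp2 was at 0.18 ± 0.083 and not called, except after quantile normalization (adjusted p = 0.0476) and without siSCR day 4 replicate 1 (0.0426).

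Over the 8 groups the genes took different orders. Cyp26a1 spanned 5.03 log2 units between group means, from 12.38 in siPRMT1 with ATRA down to 7.35 in siPRMT1 ES cells. In between came siSCR with ATRA, siPRMT1 with DMSO, siPRMT1 day 4, siSCR with DMSO, siSCR day 4 and siSCR ES cells, and among neighbours only the ES groups overlapped. Stra6 (span 2.83), Crabp2 (2.21) and Cyp26b1 (1.39) were highest in siPRMT1 with ATRA, then in siSCR with ATRA, each apart from the next group. Dhrs3 (span 2.69) had the ATRA groups on top, overlapping each other, and all others at least 2 log2 units lower. Crabp1 (span 2.88) had the ES groups on top and siSCR with ATRA and DMSO at the bottom. Rdh10 (span 1.39) was lowest in ES cells and highest in siSCR with DMSO. The siSCR groups with DMSO and ATRA are the 6 arrays that stood apart, and the part of that separation in these orders was not tested. For Cyp26c1 all neighbouring groups overlapped, and for Aldh1a2 all but the lowest, siPRMT1 ES cells at 6.64 ± 0.094 (SD, n = 3).

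Across the 24 arrays, which share 8 conditions, Stra6 correlated with Crabp2 (Pearson r = 0.943), Cyp26b1 with Dhrs3 (0.933) and Crabp1 inversely with Rdh10 (-0.955), given as a description. These correlations and those below include the 6 arrays that stood apart, and the part of that separation was not tested. Among 4182 other genes whose group means spanned at least 1 log2 unit, those closest to Cyp26a1 were 2610528J11Rik (0.966), Cltrn (0.943) and Fut4 (0.924). Closest to Stra6 were Crabp2, Epo (0.936) and Actn3 (0.932). Closest to Crabp2 were Tll1 (0.967), Olig3 (0.955) and the receptor gene Rarb (0.949). Dhrs3 was closest to Nrip1 (0.98), which encodes a nuclear receptor corepressor, Pptc7 (0.975) and Acp5 (0.965). Cyp26b1 was closest to Hoxb5 (0.946), Prrt3 (0.943) and Cdk15 (0.939). Crabp1 was closest to Usp2 (0.975), Farp1 (0.974) and Plcd1 (0.974), and Rdh10 to Stx7 (0.967), Slc40a1 (0.966) and Rrbp1 (0.953).

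The rest of the pathway was read from 3 lists, beside the backgrounds given above. Over all genes, 12% were called with ATRA in siPRMT1 and 23.4% in siSCR, and 3.24% for the difference in response. From ES cells to day 4 it was 41.4% in siPRMT1 and 28.2% in siSCR. Against siSCR it was 18.8% in ES cells, 18.4% at day 4, 65.9% with DMSO and 70.1% with ATRA. The last 2 and the difference in response have the 6 arrays that stood apart on 1 side only. Of 18 measured receptors and classical targets, 11 higher and 2 lower were called with ATRA in siPRMT1 and 10 higher and 1 lower in siSCR, with medians of 0.44 and 0.35. Stra8, the meiotic entry gene, rose by 4.19 ± 0.14 in siPRMT1 and 4.07 ± 0.14 in siSCR. Rarb, a retinoic acid receptor gene, rose by 2.35 ± 0.079 in siPRMT1 and 1.13 ± 0.079 in siSCR. The response was larger in siPRMT1 for 7 of the 18 and smaller for 3, led by Hoxb2 (2.40 ± 0.16), Hoxb1 (1.94 ± 0.11) and Rarb (1.22 ± 0.11). Against siSCR, 1 higher and 9 lower were called in ES cells, 4 higher and 1 lower at day 4, 9 higher and 5 lower with DMSO and 12 higher and 4 lower with ATRA. From ES cells to day 4, 5 higher and 9 lower were called in siPRMT1 and 2 higher and 12 lower in siSCR.

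Of 13 measured binding and uptake genes, 0 higher and 2 lower were called with ATRA in siPRMT1 and 2 higher and 3 lower in siSCR. From ES cells to day 4, 5 higher and 1 lower were called in siPRMT1 and 4 higher and 3 lower in siSCR. The largest were Ttr, a plasma carrier made by visceral endoderm and also on the endoderm list, at 4.31 ± 0.11 and 3.19 ± 0.11, and the endocytic receptor gene Lrp2 at 4.18 ± 0.084 and 3.46 ± 0.084. Cubn is on the endoderm list too, so the counts of these lists share genes. It averaged 13.12 at day 4 in siPRMT1, against 10.55 in ES cells, and 12.57 in siSCR, against 10.22. Against siSCR at day 4, 6 higher and 1 lower were called. With DMSO against day 4 in siPRMT1, the plasma retinol carrier gene Rbp4 was higher by 1.43 ± 0.12 (adjusted p = 5.81e-06).

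Of 30 measured genes of other retinoid enzymes, 2 higher and 4 lower were called with ATRA in siPRMT1 and 1 higher and 4 lower in siSCR, with medians of 0.024 and 0.025. The largest in siSCR was the cytochrome P450 gene Cyp2s1, which fell by 0.88 ± 0.079. From ES cells to day 4, 3 higher and 7 lower were called in siPRMT1 and 4 higher and 5 lower in siSCR. Against siSCR, 3 higher and 4 lower were called in ES cells, with the reductase gene Dhrs7 at 0.77 ± 0.077 (adjusted p = 6.01e-07), and 2 higher and 3 lower at day 4, with Dhrs7 at -0.94 ± 0.077 (adjusted p = 3.38e-08).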

How the data were processed

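RNA of 24 samples was measured on Affymetrix whole-transcript arrays. The authors deposited 1 log2 value per probe set and array, where the log base is read from the range of the values. Their summarisation and normalization are not stated in the labels. Of 35556 probe sets, 21789 had 1 gene symbol, and the set with the highest mean was used for each of 19938 genes. No detection calls were used, and the number of arrays limits the precision.

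Group means were fitted with limma 3.58.1 in R 4.3.3 (16 residual degrees of freedom, no replicate block), and p-values were adjusted over all genes. The fit was tested on simulated data (5 draws, 200 changed genes of 19938). In the deposited data 4663 genes were called for ATRA in siSCR and 646 for the difference in response. The rates of the simulation need not hold there. For ATRA in siSCR it recovered 82.4% of 1.5-fold and 98.4% of 2-fold changes, with 4.12% false calls. For the difference in response it recovered 59.2% and 90.2%, with 5.67% false calls, so differences of 1.5-fold can go uncalled. The members, lists, comparisons and alternatives were chosen with earlier results of these data known. The text names all 9 members and Prmt1, and of the 3 other lists up to 6 called genes with the largest changes per comparison. Similar genes are the 3 with the highest Pearson r. The alternatives were a replicate block, only the compared groups, quantile normalization, median centring, scaling to one SD, no dimmest 25% of genes, mean probe sets, a variance trend, array weights, a 2-fold minimum, no siSCR arrays of DMSO and ATRA, and each array left out.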

Additional observations from a re-analysis of the deposited data

Results flagged for a closer look

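For 6 results an interaction term in limma called the difference between the lines, with 3 arrays in each group. Over all genes that term called 3.24% for the ATRA response and 23.8% for the day 4 change. The term for the ATRA response sets a response within the 6 arrays that stood apart against one outside them. The ATRA response was larger in siPRMT1 for Stra6 (0.93 ± 0.10, adjusted p = 1.88e-05), Crabp2 (0.82 ± 0.12, adjusted p = 0.000372) and Cyp26b1 (0.75 ± 0.13, adjusted p = 0.00203). The day 4 change was higher in siPRMT1 for Cyp26a1 (1.82 ± 0.14, adjusted p = 1.16e-08), Rdh10 (0.47 ± 0.098, adjusted p = 0.00123) and Crabp2 (0.50 ± 0.12, adjusted p = 0.00319).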

How the results depend on the processing

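Of the 756 differences recomputed without 1 array, 708 kept their direction and their side of the threshold. Calls that changed are given with the results above, and the cause was not tested. Numbers of the 9 genes called moved as follows. For siPRMT1 against siSCR in ES cells, 1 in the reported fit, it was 2 with the replicate block, with the compared groups only, without the dimmest genes, with array weights and without the 6 arrays that stood apart, and 0 after median centring, scaling to one SD, with a variance trend, at a 2-fold minimum and without each array (0 to 0). Over all 19938 genes, the ES cell fits that gave 2 called 3756, 3248, 4008 (of 14953), 7218 and 5111 genes in that order, against 3747 reported. For the day 4 change between the lines, 3 as reported, it was 5 with the compared groups only, with array weights and without those 6 arrays. Over all genes these fits called 5552, 7688 and 6188, against 4754 reported. For DMSO against day 4 in siPRMT1 it was 0 after median centring, scaling to one SD and without each array (0 to 0). A 2-fold minimum left 3 for ATRA in siSCR, 0 for the difference in response, 2 for day 4 in siPRMT1 and 2 in siSCR, 1 for the day 4 difference, and 1, 2 and 3 for the knockdown at day 4, with DMSO and with ATRA, and 0 and 2 for DMSO against day 4 in siPRMT1 and siSCR. Signs turned for Cyp26c1 in the day 4 difference (quantile 0.034, centring 0.029, weights 0.075), Dhrs3 with ATRA between lines (quantile -0.16, one SD -0.34) and in response (one SD -0.070), Aldh1a2 with ATRA (quantile 0.030), Crabp1 in response (centring 0.0062) and Cyp26b1 in ES cells (weights -0.031), none of them called in the reported fit. Leaving out 1 array also turned uncalled differences: Aldh1a2 at day 4 in siSCR (-0.13 to 0.0016), between lines at day 4 (-0.065 to 0.079) and in response (-0.099 to 0.22), Cyp26c1 in the day 4 difference (-0.12 to 0.028) and between lines at day 4 (-0.021 to 0.11), Cyp26b1 (-0.023 to 0.085) and Crabp2 (-0.13 to 0.061) in ES cells, Dhrs3 between lines at day 4 (-0.0012 to 0.082), and Crabp1 with ATRA in siSCR (-0.084 to 0.30) and in response (-0.19 to 0.20). Deviations from group means correlated at -0.502 to 0.606 between same-numbered arrays of different groups. Their mean was 0.020, against -0.0097 for different numbers. Pairing by replicate number was thus not seen on average, and in single groups it is not excluded. The replicate block added calls of Aldh1a2 for day 4 in siPRMT1 (adjusted p = 0.0489) and for the knockdown in ES cells (0.0377) and with DMSO (0.0386) and changed no other call of the 9. Over all genes, calls for ATRA in siSCR were 4663, against 544 with the compared groups only and 1567 with array weights, and for ATRA in siPRMT1 2391, against 7640 with weights. For the difference in response they were 646, against 135 with the compared groups only, 405 after centring and 304 to 897 without 1 array. Array weights gave 8969 for day 4 in siSCR (5632 reported), 7688 for the day 4 difference (4754), and 7218 and 6106 for the knockdown in ES cells and at day 4 (3747 and 3669). DMSO against day 4 in siPRMT1 gave 92, against 47 after centring, 60 at one SD, 145 with a trend, 2536 with weights, 286 without the 6 arrays and 29 to 36 without 1 array. A 2-fold minimum left 2 to 1606 genes a comparison. It left 63 for ATRA in siSCR and 31 for the difference in response. For day 4 it left 653 in siPRMT1, 550 in siSCR and 343 for their difference. For the knockdown it left 76 in ES cells, 92 at day 4, 1467 with DMSO and 1606 with ATRA. For DMSO against day 4 it left 2 in siPRMT1 and 1202 in siSCR. The share of calls that were higher was 32.8% after centring for ATRA in siSCR (47.8% reported), 75% for day 4 in siPRMT1 (55.5%), 78% for the day 4 difference (63%, and 52.7% at one SD), 82.9%, 59.7% and 59.8% for the knockdown at day 4, with DMSO and with ATRA (61.9%, 47.5% and 45.9%), and 87.2% for DMSO against day 4 in siPRMT1 (66.3%, and 83.3% at one SD).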
